A study of Gelatoporia subvermispora and Trametes versicolor with 24 samples.

Results

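The manganese peroxidase genes of the white-rot fungus Trametes versicolor were followed in mycelium that had received vanillate or water. Manganese peroxidases (MnP) are secreted heme enzymes that use hydrogen peroxide to oxidise Mn(II) to Mn(III). The Mn(III), held in solution by organic acids such as oxalate, diffuses away from the enzyme and attacks phenolic parts of lignin. With lignin peroxidases and versatile peroxidases they form the class II peroxidases, the enzymes by which white-rot fungi are known to open the lignin of wood.

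The gene tables held 13 identifiers made of MnP and a number among 14570 T. versicolor genes. The 10 with the largest total count over the 12 T. versicolor libraries are described here, and they held 2547 of the 2646 counts of all 13 identifiers. The members were thus chosen by total counts over both treatments, not by the difference between them. The totals ran between 1056 counts for MnP11s and 81 for MnP12s, the last gene inside the limit. MnP6s, the first outside it, had 80 counts, so these 10 and the 11th gene are separated by a single read. MnP13 and MnP9s had 11 and 8 counts. That the genes encode manganese peroxidases rests on their identifiers alone, since no sequence or product table was used here. Gene lengths were not used here either, so totals are numbers of reads and do not rank the genes by transcript level.

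Vanillate, the salt form of vanillic acid, is a methoxylated aromatic compound related to the building blocks of lignin, and the series asked how white-rot fungi break such compounds down. Vanillate flasks held T. versicolor strain FP-101664, a monokaryon (mycelium with a single nuclear type), grown standing for 5 days at 28 °C with 5 g/L cellobiose, supplemented with α-tocopherol (1 mM) plus ascorbic acid (5 mM), and given the first of 2 vanillate pulses 30 min later and the other after 12 h, to a final 2 mM. Water flasks were the same strain with the same ascorbic acid and α-tocopherol, and received equal volumes of autoclaved water at the same times. All were harvested on day 6, 12 h after the last pulse, so that both groups had met the same antioxidants and no flask without them was compared. A single strain was used. The labels do not say if the flasks of a group had their own seed cultures, and p-values therefore cover only the spread among these flasks, which may be technical.

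Each group had 3 flasks, and each flask was the sum of 2 libraries, which were much closer to each other than to libraries of another flask. The titles do not say what the repeat library is, and 1 of the water replicate 1 libraries has an irregular title. The series' design gives 6 cultivations of the fungus and its growth protocol 12, so n = 3 rests on reading each pair as 1 flask. Gene counts per flask were 5185591 to 7672499 with vanillate and 3950984 to 13835447 with water. At this depth 6 of the 10 members had 121 counts or fewer in all 6 flasks together, and the precision of their values is limited by counting. Reads shared by near-identical members of the family could have been lost or split in the authors' counting, which makes all of these values uncertain. Levels are given as CPM, read counts per common number of gene counts after TMM scaling, and changes are log2 fold changes of vanillate over water with a standard error (SE) from edgeR's quasi-likelihood test. A gene was called when its Benjamini-Hochberg adjusted p over all genes tested was below 0.05. Values are from bulk mycelium, in which fewer hyphae that express a gene and less of its RNA per hypha cannot be told apart.

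Manganese peroxidase genes moved in both directions with vanillate. Of the 10 members, all of which were tested, MnP5s, MnP4s and MnP12s rose, MnP11s and MnP1s fell, and 5 did not pass. The background was of the same order: of 11032 genes tested 20.1% rose and 18.5% fell, 38.7% in all. That background is not matched by level. The median of the mean levels was 2.84 CPM over the members and 31.2 CPM over all genes tested. Shares among genes of like level were not computed. The median log2 fold change was 0.34 over the members and 0.000996 over all genes tested, and 6 of 10 members lay above 0, against 50.1% of all genes. The same 3 members had every vanillate flask above every water flask and the same 2 had every vanillate flask below, where 26% and 24.1% of all genes did so. By the DESeq2 Wald test 1 member rose (MnP5s, adjusted p = 0.0367) and 1 fell (MnP11s, adjusted p = 0.0377), where 14.9% of all genes rose and 14.7% fell. The count of risen members was 1 to 3 and that of fallen members 0 to 2 when a flask was left out: 1 and 0 without vanillate replicate 1, 2 and 1 without vanillate replicate 2, 3 and 1 without vanillate replicate 3, 2 and 1 without water replicate 1, 1 and 0 without water replicate 2, and 1 and 2 without water replicate 3. Over these 6 fits 16% to 19.7% of all genes rose and 13.5% to 18.2% fell.

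**Figure D1:**
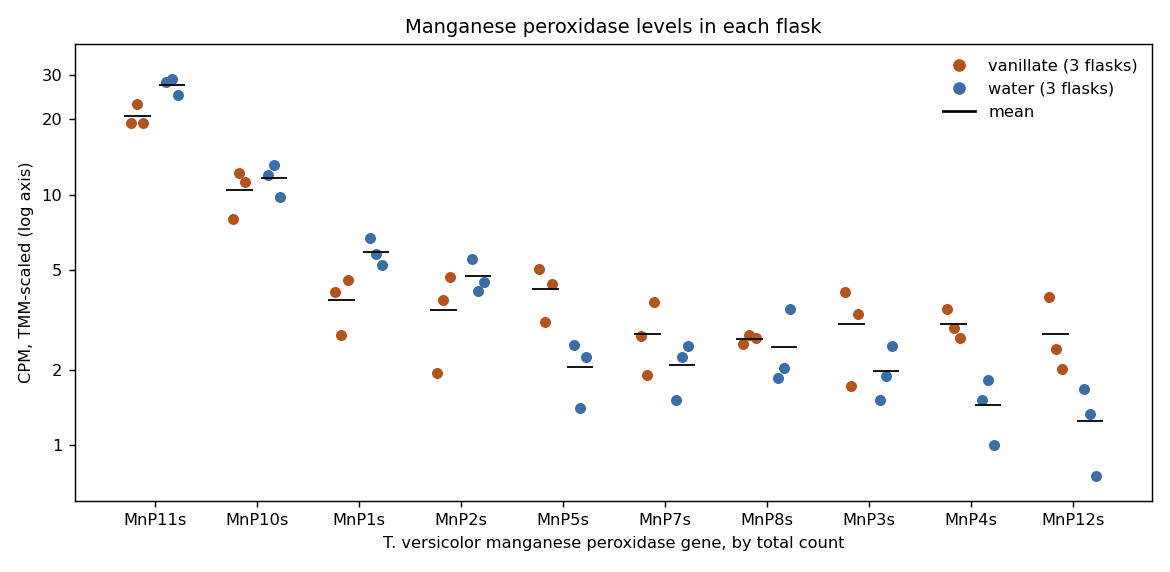
TMM-scaled CPM (log axis) of the 10 manganese peroxidase genes in each flask, ordered by total count, with 3 vanillate flasks and 3 water flasks per gene and a black line at each mean. Vanillate points lie wholly below water points for MnP11s and MnP1s and wholly above them for MnP5s, MnP4s and MnP12s, and the groups overlap for the other 5 genes.

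MnP11s, the member with the most reads, fell. It stood at 19.3, 23.0 and 19.4 CPM in the vanillate flasks, against 28.1, 28.9 and 25.0 CPM in the water flasks. The groups did not overlap, and the highest vanillate flask, replicate 2, lay just under the lowest water flask, replicate 3. The means were 20.5 ± 2.10 CPM with vanillate and 27.3 ± 2.05 CPM with water (SD, n = 3 each), a log2 fold change of -0.43 (SE 0.13, edgeR adjusted p = 0.0172). These rest on 377 counts with vanillate and 679 with water, whose ratio after scaling was 0.730 with a 95% interval of 0.642 to 0.829 by counting error alone. The call was lost without vanillate replicate 1 (edgeR adjusted p = 0.0708), without vanillate replicate 3 (0.0743), without water replicate 2 (0.0562) and with the first library of each flask alone (0.161). Over all 14 alternatives the log2 fold change stayed between -0.53 and -0.34, with adjusted p of 0.00995 to 0.161.

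MnP1s fell as well, from fewer reads. Its levels were 4.09, 2.76 and 4.55 CPM in the vanillate flasks and 6.73, 5.82 and 5.25 CPM in the water flasks. Every vanillate flask was below every water flask, and vanillate replicate 2 was the lowest of all. The log2 fold change was -0.63 (SE 0.23, edgeR adjusted p = 0.0426), on 71 counts with vanillate and 144 with water. By counting error alone the ratio of vanillate to water was 0.648, with a 95% interval of 0.481 to 0.867. MnP1s was the call nearest the threshold: it was lost without vanillate replicate 1 (edgeR adjusted p = 0.0805), vanillate replicate 2 (0.135), water replicate 1 (0.0932) or water replicate 2 (0.0727), with the DESeq2 Wald test (0.129) and with the first library of each flask alone (0.346). Its 14 alternatives gave log2 fold changes of -0.81 to -0.43 and adjusted p of 0.0306 to 0.346.

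MnP5s had the largest rise among the 10 with all 6 flasks, though not under every alternative: MnP12s was higher with a replicate block (1.08, against 1.04 for MnP5s) and without vanillate replicate 3 (1.23, against 1.10), and MnP4s (1.17) and MnP12s (1.02) were higher without water replicate 2. It was at 5.06, 3.11 and 4.42 CPM in the vanillate flasks, against 2.52, 1.40 and 2.25 CPM in the water flasks. The lowest vanillate flask, replicate 2, stood above the highest water flask, replicate 1, and water replicate 2, the deepest flask, was the lowest of the 6. Means were 4.20 ± 1.00 CPM with vanillate and 2.06 ± 0.58 CPM with water (SD, n = 3 each), and the log2 fold change was 1.16 (SE 0.30, edgeR adjusted p = 0.00716), on 77 and 44 counts. The ratio was 2.30 by counts, with a 95% interval of 1.57 to 3.41 for counting error. The call held in 11 of the 12 alternatives that could test MnP5s and was lost without water replicate 2. There the log2 fold change was 0.78 and the edgeR adjusted p 0.088. Over the 12 the adjusted p was 0.00457 to 0.088. A filter of 5 CPM in 3 flasks and the first library alone left MnP5s untested.

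MnP4s rose to 3.51, 2.94 and 2.68 CPM in the vanillate flasks, against 1.51, 1.82 and 1.00 CPM in the water flasks. The groups were apart in every flask. The log2 fold change was 0.91 (SE 0.30, edgeR adjusted p = 0.0265), on 55 counts with vanillate and 39 with water. The ratio by counts was 1.85, with a 95% counting interval of 1.21 to 2.87. The call was lost without vanillate replicate 1 (edgeR adjusted p = 0.0942), vanillate replicate 2 (0.0552), water replicate 1 (0.0549) or water replicate 3 (0.0774) and with the DESeq2 Wald test (0.114), and over its 11 alternatives the adjusted p was 0.0223 to 0.114. MnP4s was not tested with the 5 CPM filter or with either library alone.

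MnP12s, the member with the fewest reads, rose to 3.89, 2.42 and 2.01 CPM in the vanillate flasks, against 1.68, 1.33 and 0.75 CPM in the water flasks. The groups did not overlap, but water replicate 3 rested on 3 counts, and 1 of its libraries held 0. The log2 fold change was 1.02 (SE 0.36, edgeR adjusted p = 0.0352), on 49 counts with vanillate and 32 with water, and the 95% counting interval of the ratio, 2.01, was 1.26 to 3.25. The call was lost without vanillate replicate 1 (log2 fold change 0.73, edgeR adjusted p = 0.177), vanillate replicate 2 (0.0528), water replicate 2 (0.108) or water replicate 3 (0.0963) and with the DESeq2 Wald test (0.11), and over its 11 alternatives the adjusted p was 0.0181 to 0.177. MnP12s, too, was not tested with the 5 CPM filter or with either library alone.

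**Figure D2:**
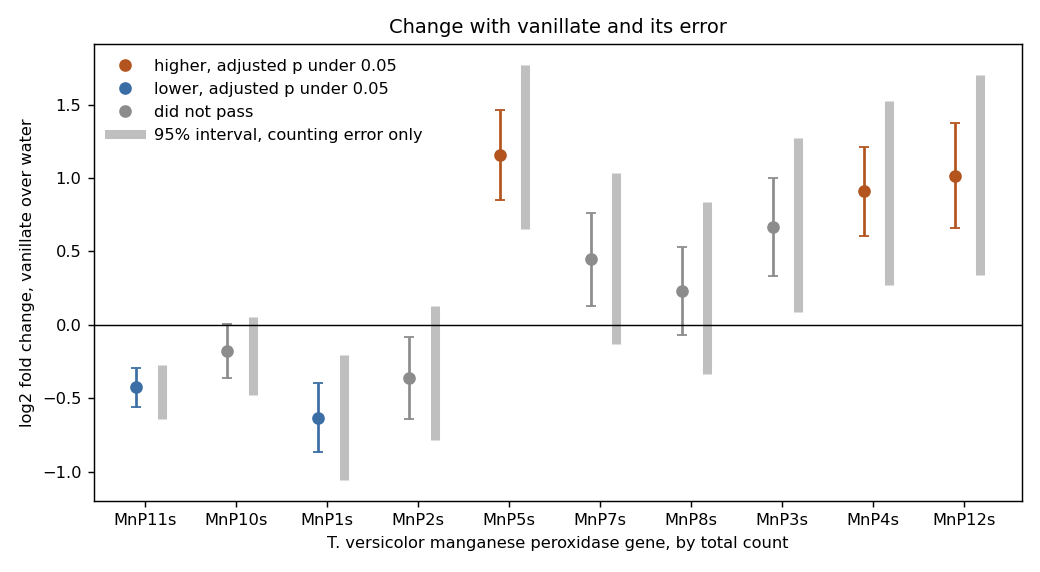
Log2 fold change of vanillate over water for the 10 manganese peroxidase genes, ordered by total count: points with bars are the edgeR estimate ± SE, coloured by call, and grey strips are the 95% interval of the ratio of summed counts by counting error alone. MnP5s at 1.16, MnP12s at 1.02 and MnP4s at 0.91 passed as higher, and MnP11s at -0.43 and MnP1s at -0.63 as lower.

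The other 5 members did not pass, and their groups overlapped. MnP10s, which had the most reads of these, was at 7.98, 12.3 and 11.2 CPM in the vanillate flasks and 11.9, 13.2 and 9.75 CPM in the water flasks. Vanillate replicate 1 was the lowest flask, while the others of both groups lay between 9.75 and 13.2 CPM. Its log2 fold change was -0.18 (SE 0.19, edgeR adjusted p = 0.486), and the ratio of 196 to 298 counts was 0.865 after scaling, with a 95% counting interval of 0.719 to 1.04, so that a fall of the size seen in MnP11s is inside the interval.

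MnP2s was at 1.95, 3.80 and 4.68 CPM in the vanillate flasks and 5.55, 4.14 and 4.50 CPM in the water flasks (log2 fold change -0.36, SE 0.28, edgeR adjusted p = 0.334). Vanillate replicate 3 lay within the range of the water flasks, and the other vanillate flasks lay below that range. MnP3s was at 4.09, 1.73 and 3.35 CPM in the vanillate flasks and 1.51, 1.89 and 2.50 CPM in the water flasks (log2 fold change 0.67, SE 0.33, edgeR adjusted p = 0.127). Vanillate replicates 1 and 3 were above all water flasks and replicate 2 was among them. Without vanillate replicate 2 MnP3s passed as higher (log2 fold change 0.91, edgeR adjusted p = 0.0342), and over its 11 alternatives the adjusted p was 0.0342 to 0.391.

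MnP7s was at 2.73, 1.90 and 3.75 CPM in the vanillate flasks and 1.51, 2.25 and 2.50 CPM in the water flasks (log2 fold change 0.45, SE 0.32, edgeR adjusted p = 0.288). MnP8s was at 2.53, 2.76 and 2.68 CPM in the vanillate flasks and 1.85, 2.03 and 3.50 CPM in the water flasks (log2 fold change 0.23, SE 0.30, edgeR adjusted p = 0.583). The vanillate flasks of MnP8s lay close together, inside the range of its water flasks. For MnP7s the 95% counting interval of the ratio was 0.913 to 2.05 and for MnP8s 0.794 to 1.79. A rise as large as that of MnP4s lies inside the interval of MnP7s and just outside that of MnP8s. These intervals leave out the spread among flasks, and no member was tested against another.

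Below the limit, MnP6s was also tested and did not pass. It was at 0.584, 2.42 and 1.74 CPM in the vanillate flasks and 1.68, 2.39 and 1.501 CPM in the water flasks, with a log2 fold change of -0.31 (SE 0.39, edgeR adjusted p = 0.565). Its lowest flask, vanillate replicate 1, held 3 counts. MnP13 and MnP9s had too few counts to be tested. MnP13 had 2, 5 and 2 counts in the vanillate flasks and 1, 0 and 1 in the water flasks, and the scaled ratio of the 9 and 2 counts was 5.92, with a 95% counting interval of 1.23 to 56.3. MnP9s had 2, 1 and 0 counts in the vanillate flasks and 1, 2 and 2 in the water flasks, which gives no direction.

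The edgeR SE of most members was close to that of counting. It comes from a model that shares estimates of spread among genes, so it does not measure each gene's own spread among flasks. The SE of the log2 fold change was 1.00 to 1.25 times the SE that counting alone would give in the 8 members other than MnP11s and MnP10s, where it was 1.40 times for both.

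The 4 members with the most reads, MnP11s, MnP10s, MnP1s and MnP2s, had log2 fold changes below 0, and the other 6 lay above 0. MnP6s, next after them, was below 0 again. This order is by reads and carries no test. Nor is it independent of direction, since water flasks gave 1497 of the 2547 member counts and genes lower with vanillate thus rank higher. By vanillate counts alone MnP5s (77) stood above MnP1s (71) and MnP2s (67).

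The members' summed level was 55.1, 56.6 and 58.7 CPM in the vanillate flasks and 62.9, 62.8 and 57.0 CPM in the water flasks, and the groups overlapped. The members took 0.00562% ± 0.000141 of gene counts with vanillate and 0.00615% ± 0.000352 with water (SD, n = 3 each). By this unscaled share the groups did not overlap, though narrowly. The highest vanillate flask was at 0.00572% (95% Wilson interval 0.00521% to 0.00628%). The lowest water flask was at 0.00577% (0.00507% to 0.00657%), so overlap of the groups depended on TMM scaling. MnP11s held 34.98%, 40.5% and 33.0% of the members' counts in the vanillate flasks, against 44.7%, 46.0% and 43.9% in the water flasks, with no overlap between the groups. The 95% Wilson interval of the vanillate flask with the largest share was 35.4% to 45.9%, and that of the water flask with the smallest share 37.6% to 50.4%, and these intervals overlap. MnP10s held 18.4% ± 3.63 with vanillate and 19.0% ± 1.95 with water, and the other 8 members together held 45.4% ± 6.71 and 36.1% ± 3.04. These shares are within a flask and do not depend on how flasks are scaled.

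**Figure D3:**
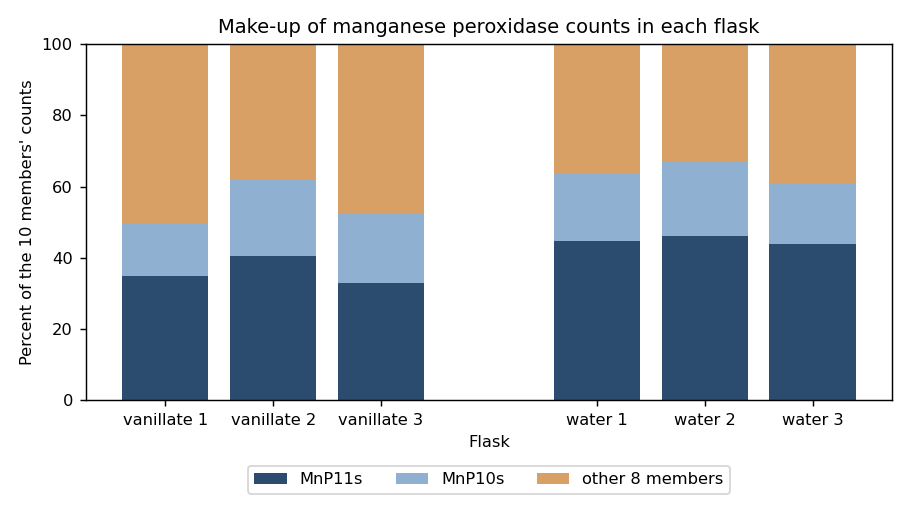
Percent of the 10 members' counts in each flask that came from MnP11s, MnP10s and the other 8 members, with vanillate flasks on the left and water flasks on the right. MnP11s held 33.0% to 40.5% in the vanillate flasks and 43.9% to 46.0% in the water flasks, with a similar share of MnP10s in both groups.

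Ratios between members in a flask restated the changes of the called members without any scaling. For every 100 counts of MnP11s there were 26.3, 13.5 and 22.8 counts of MnP5s in the vanillate flasks, against 8.98, 4.85 and 9 in the water flasks. MnP4s stood at 18.2, 12.8 and 13.8 per 100 with vanillate and 5.39, 6.31 and 4 with water, and MnP12s at 20.2, 10.5 and 10.3 with vanillate and 5.99, 4.61 and 3 with water. MnP1s, which fell together with MnP11s, was at 21.2, 12.0 and 23.4 per 100 in the vanillate flasks and 24.0, 20.1 and 21.0 in the water flasks, and there the groups overlapped. These pairs were picked after their changes were known and carry no test.

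**Figure D4:**
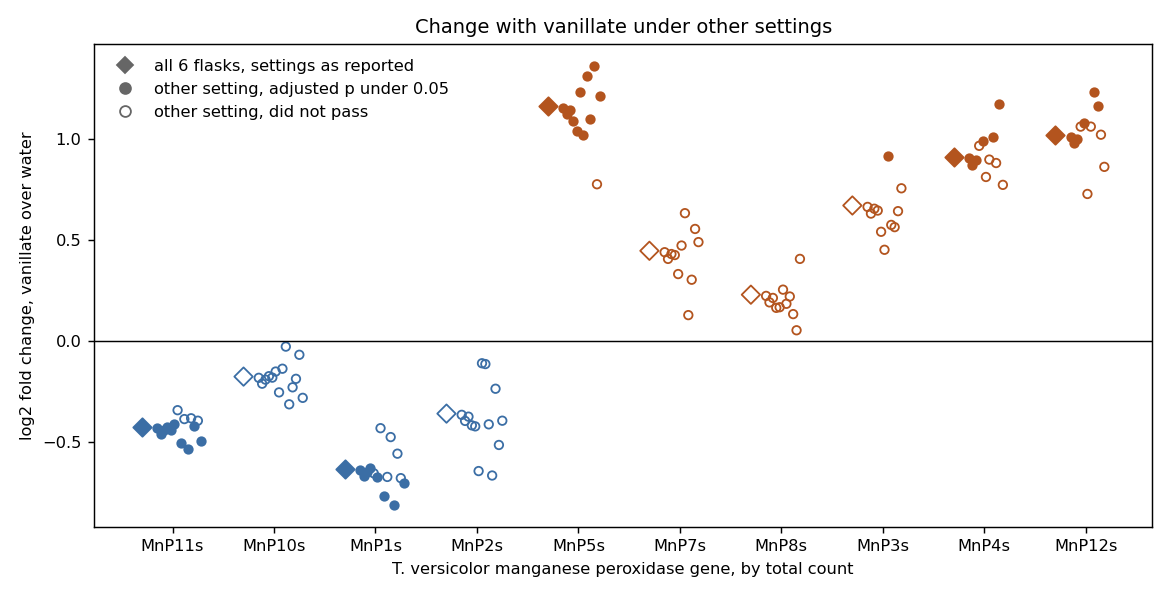
Log2 fold change of vanillate over water for each of the 10 members with all 6 flasks (diamonds) and under the alternatives that could test it (circles), filled where the adjusted p was below 0.05, orange above 0 and blue below. The points of each gene stay on one side of 0, while many calls change between filled and open.

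The genes nearest in pattern to MnP11s were looked for among 9239 tested genes at a mean level of 5 CPM or more, by the root mean square difference of log2 CPM over the 6 flasks after centring each gene on its own mean. The 3 nearest were TRAVEDRAFT_46720, TRAVEDRAFT_30260 and TRAVEDRAFT_71103, at 0.0423, 0.0437 and 0.0440, against a median of 0.281 over all candidates. Nothing is stated of their products in the sources used here. TRAVEDRAFT_46720 was at 9.31 ± 1.07 CPM with vanillate and 12.3 ± 1.47 CPM with water, TRAVEDRAFT_30260 at 233.6 ± 24.7 and 295.7 ± 22.9 CPM, and TRAVEDRAFT_71103 at 50.7 ± 4.31 and 69.3 ± 3.95 CPM (SD, n = 3 each). TRAVEDRAFT_46720 did not pass (edgeR adjusted p = 0.0538), while TRAVEDRAFT_30260 (0.0134) and TRAVEDRAFT_71103 (0.00249) passed as lower. These distances are the smallest of 9239 over the same 6 flasks, so small values were assured and carry no test. MnP11s itself had 99 to 412 counts per flask, so part of the pattern matched is counting error. Among the other members MnP10s was nearest to MnP11s, at 0.200. The 3 members that rose were the farthest, with MnP12s at 0.791, MnP5s at 0.776 and MnP4s at 0.718. Counting error also makes members with few reads look less alike, and its part in these distances was not tested.

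Of the 13 other class II peroxidases tested 1 rose, 1 fell and 11 did not pass, with a median log2 fold change of -0.05, where 20.1% of all genes rose and 18.5% fell. Leaving out water replicate 2 or adding a replicate block gave 2 higher and 1 lower, in both cases by LiP9, and there were 1 and 2 without water replicate 3 and with the DESeq2 Wald test. With the first library of each flask alone 0 of 7 tested rose and 2 fell, and of 5 left by a filter of 5 CPM in 3 flasks 0 rose and 1 fell. VP1, the gene that rose with all 6 flasks, was not tested in either. Of all genes 17.3% rose and 18.2% fell without water replicate 2, and 20.3% and 18.8% with the block. The shares were 16% and 15.7% without water replicate 3, and 14.9% and 14.7% with the DESeq2 Wald test. With the first library they were 16.7% and 17.1%, and with the filter 20.5% and 21.3%. Lignin peroxidases, which oxidise non-phenolic lignin directly, numbered 10, of which 1 fell. This was LiP1, at 10.0 ± 0.78 CPM with vanillate and 17.8 ± 5.32 CPM with water (log2 fold change -0.81, SE 0.20, edgeR adjusted p = 0.00438). LiP6 had the highest mean CPM of them and was at 20.2 ± 6.12 CPM with vanillate and 19.5 ± 3.45 CPM with water. Versatile peroxidases combine manganese oxidation with direct attack on lignin, and of 3 tested VP1 rose to 5.13 ± 0.62 CPM with vanillate, against 1.72 ± 1.14 CPM with water (log2 fold change 1.65, SE 0.34, edgeR adjusted p = 0.00131). VP2 was at 96.0 ± 15.7 CPM with vanillate and 125.3 ± 29.2 CPM with water (log2 fold change -0.40, edgeR adjusted p = 0.0957). VP2 did pass as lower without water replicate 3 (log2 fold change -0.58, edgeR adjusted p = 0.00342), with the first library of each flask alone (0.0221) and with the DESeq2 Wald test (0.0488), and over its 14 alternatives the adjusted p was 0.00342 to 0.317. LiP9 was named after its values were seen.

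Laccases, copper enzymes that oxidise phenols with oxygen, numbered 7, of which TvLac7 rose (log2 fold change 3.60, SE 0.26, edgeR adjusted p = 1.96e-07) and 6 did not pass. Another laccase passed as lower when water replicate 2 was left out (TvLac2) and when a replicate block was added (TvLac1). For TvLac1 the edgeR adjusted p was 7.6e-06 with the block and 0.322 without it. Over all genes 38.7% were called with all 6 flasks and no block. Without water replicate 2, 17.3% of all genes rose and 18.2% fell, and with the block 20.3% and 18.8%. Of the 6 other heme peroxidases, CCP1, by its identifier a cytochrome c peroxidase of mitochondria, rose to 232.5 ± 12.9 CPM with vanillate, against 186.2 ± 10.5 CPM with water (log2 fold change 0.32, SE 0.09, edgeR adjusted p = 0.00942). DyP1, by its identifier a dye-decolorizing peroxidase, fell to 15.1 ± 3.11 CPM with vanillate, against 24.2 ± 5.41 CPM with water (log2 fold change -0.69, SE 0.18, edgeR adjusted p = 0.00746), and 4 did not pass. CCP1 was lost without vanillate replicate 1 (edgeR adjusted p = 0.0573) and DyP1 without vanillate replicate 3 (0.0517), and the counts were 2 higher and 1 lower without vanillate replicate 2 and with the second library of each flask alone, so that 1 to 3 of these 6 genes were called. Of all genes 16.2% rose and 13.5% fell without vanillate replicate 1, and 16.5% and 15% without vanillate replicate 3. The shares were 17.5% and 17.5% without vanillate replicate 2, and 18.1% and 16.7% with the second library.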

How the data were processed

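Per the labels' protocols, total RNA was treated with DNase, made into libraries by a stranded kit for total RNA and read from one end. The authors deposited raw read counts per gene for each library, made with FastQC, STAR and HTSeq per the submitters' processing notes. For versions, genome build and counting options the sources used here give nothing. Reads assigned to no gene closed each table and were left out of library sizes; genes held 74.3% to 76.7% of reads. The line for reads with more than 1 alignment held 0 throughout, and where such reads went is not stated, so near-identical family members could have lost or split reads and their values are uncertain.

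The 12 T. versicolor libraries were used, in 6 pairs. Chi-square over genes, per degree of freedom, was 1.02 to 1.09 within pairs and between flasks of 1 group 2.31 to 8.76, so pairs were summed. Counts of 1764115 to 8143448 per library have no molecular identifiers, and intervals cover counting error only. Vanillate was compared with water in edgeR 4.0.16 (R 4.3.3): filterByExpr defaults (min.count 10, min.total.count 15), TMM, two-sided quasi-likelihood F test with robust estimation, over all genes. The SE is the absolute log2 fold change over the square root of F. Counting intervals are exact binomial intervals of summed counts. Log2 CPM for the search by pattern used a prior count of 2. The procedure was tested on simulated data. Alternatives were DESeq2 1.42.0, other scalings and filters, a replicate block, single libraries and leaving out each flask. Every MnP identifier is named; from other lists up to 2 genes of highest mean CPM and 2 of smallest adjusted p could be named. Lists by product could not be matched, since no product table was used here. The members and lists were chosen with earlier results of these data known.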

Additional observations from a re-analysis of the deposited data

How the results depend on the processing

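The direction of all 10 members was the same under every alternative that tested them. Of the 10 members 3 rose and 2 fell. The counts were again 3 and 2 with DESeq2 size factors (20% and 18.9% of all genes) and with library totals (18.6% and 20.7%). They were also 3 and 2 without a filter (17.4% and 16.5%) and with a replicate block (20.3% and 18.8%). Other settings moved these counts: 0 rose when genes needed 5 CPM or more in 3 flasks (of 3 tested, 2 fell; 20.5% and 21.3% of all genes rose and fell), 1 rose and 1 fell with the DESeq2 Wald test, with only the first library of each flask 0 of 4 tested rose and 0 fell (16.7% and 17.1% of all genes), and 1 rose with the second (5 tested, 2 fell; 18.1% and 16.7% of all genes). Leaving out a flask gave 1 to 3 higher and 0 to 2 lower. Where edgeR called 0, the counts at an unadjusted p under 0.05 were also 0 higher with that filter and 0 in either direction with the first library, and 2 lower without vanillate replicate 1 and without water replicate 2. MnP5s, MnP4s and MnP12s were not tested with that filter or with the first library, so their rises could not appear there. With the second library MnP4s and MnP12s were not tested. The share of all genes at that unadjusted p was not computed, so these unadjusted counts have no background beside them. The cause of the moves in the counts was not tested, except that fewer reads and members were tested with a single library or the higher filter. Over all genes tested, deviations from group means in flasks of the same replicate number were nearly uncorrelated (-0.00624, 0.0962 and -0.0408). Single genes could still follow the replicate number. TvLac1 was at 97.6, 146 and 241 CPM in vanillate replicates 1 to 3 and 148, 253 and 391 CPM in water replicates 1 to 3. The members' share with vanillate was 0.00577% with the first library alone. As a share of all reads it was 0.00424% with vanillate and 0.00464% with water. Depth limits the 6 members with 121 counts or fewer, and the small number of flasks limits all.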
